A study of Cricetulus griseus with 27 samples.

Results

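Exosomes and microparticles (MPs) shed by unstressed CHO-K1 cultures were compared for the miRNAs they carried. The comparison used the 3 exosome and the 3 MP libraries of the standard culture, 6 of the 27 libraries in the series. The libraries were picked out by their labels, and the comparison itself was chosen with earlier results of these data known. CHO-K1 is an established cell line from the ovary of the Chinese hamster and a common host for making therapeutic proteins. The series sequenced small RNA from cells, MPs and exosomes of a standard culture, of a culture with 60 mM NaCl added and of a culture with 9 mM NH4Cl added, in 3 libraries for each of the 9 groups. Both vesicle groups studied here came from shaken cultures of 15 mL in ActiPro medium with 6 mM L-glutamine, harvested on day 3 with neither salt added. All 9 standard libraries were prepared with the NextFlex Combo-Seq mRNA/miRNA kit and sequenced as 1 pool, so kit and pool did not differ between exosomes and MPs. The labels call the replicates biological. They do not say whether the exosomes and MPs with the same number came from the same flask, and the sources used here do not give the method that separated the vesicle types. Each label names CHO-K1 as the line and gives no transgene.

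Microparticles form when the plasma membrane bulges outward and pinches off. Exosomes form inside the cell as internal vesicles of endosomes and are released when such an endosome fuses with the surface. A miRNA is a short RNA cut from a hairpin precursor. Either arm of the hairpin (named 5p and 3p) can be loaded into an Argonaute protein, where it guides repression of matching mRNAs, and miRNAs are among the best studied RNA cargo of vesicles. Many miRNAs are transcribed together from 1 cluster of hairpins, and families share the seed, the stretch of bases that pairs with targets. The files name mature miRNAs and give their read counts, so no sequence is shown.

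The MP libraries held 818539, 1196618 and 1253633 counts and the exosome libraries 2284857, 2726446 and 2466884. Levels are given as CPM, an entry's count scaled to the total of its library, and since mature miRNAs have nearly the same length no length correction was made. Of the 4815 entries, each a mature miRNA under a species prefix (cgr for Chinese hamster, mmu mouse, rno rat, hsa human), 755 had a count in the 6 libraries. Hamster entries took 85.4% ± 0.413 (SD, n = 3) of counts in MPs and 85.4% ± 0.188 in exosomes. When the same miRNA is listed under several species, or when family members differ by few bases, reads can be split between entries, and values of single entries are uncertain to that extent. Exosome library 3 stood apart. Its counts differed from exosome libraries 1 and 2 by a chi-square per degree of freedom of 269 and 213, against 58.0 between those and 49.5 to 67.9 between MP libraries, and it had 427 entries with a count against 557 and 562. At an equal depth of 818539 counts it had 413, against 485.6 to 544 in the other 5. Results that rest on it are given with and without it.

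The exosome cargo differed from the MP cargo in many miRNAs and in both directions. By edgeR's quasi-likelihood test with Benjamini-Hochberg adjustment, fitted on the 9 standard libraries, 104 of 351 tested entries (29.6%) passed at an adjusted p under 0.05. Of these, 48 (13.7%) were higher in exosomes and 56 (16%) were lower. Fold changes below are fitted log2 differences, exosomes minus MPs, with an SE, and n = 3 libraries in each group. The change was over 2-fold for 31 of the higher and 39 of the lower entries. In 173 entries (49.3%) the 2 groups of libraries did not overlap, with exosomes above in 105 (29.9%) and below in 68 (19.4%). Overlap of entries, here and below, was read from CPM, which is scaled by library size alone and not by TMM. Under library size alone the median of all tested entries was +0.16, against +0.01 under TMM, so CPM places exosomes higher than the fitted differences do. Of the 104 entries that passed, 100 had no overlap, and the other 4 were cgr-miR-151-5p, cgr-miR-18a-5p, cgr-miR-31-5p and mmu-miR-706. The higher entries together rose from 7.64% ± 0.859 of counts in MPs to 16.3% ± 1.29 in exosomes, and the lower entries went from 40.7% ± 3.34 to 20.02% ± 2.98. These shares describe entries chosen by the same contrast. Abundant miRNAs were well represented, since 15 higher and 26 lower entries were among the 76 with a mean over 1000 CPM.

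When each of the 9 libraries was left out in turn, and under each other scaling, filter, model or tool that tested the entry under its own name, none of the 104 changed sign and 50 (20 higher, 30 lower) passed every time. Without MP library 3 only 54 entries passed, without MP library 2 there were 69, and without exosome library 3 there were 90 (43 higher, 47 lower). A fit on the 6 vesicle libraries alone without exosome library 3, a setting added after the data were seen, gave 128 (67 higher, 61 lower). Scaling moved the split. The reported TMM scaling put the median of all tested entries at +0.01, library size alone put it at +0.16 with 61 higher and 51 lower, and the authors' effective library sizes put it at +0.20 with 67 higher and 42 lower.

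**Figure D1:**
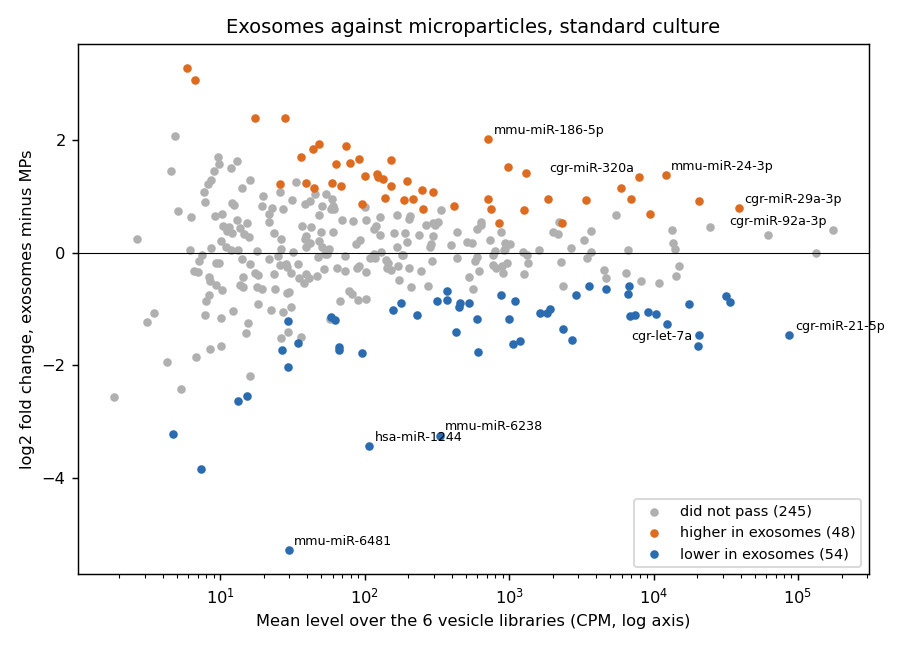
Each point is 1 of 347 tested entries with counts in both vesicle types; the x axis is the mean level over the 6 libraries in CPM (log axis) and the y axis the fitted log2 fold change, exosomes minus MPs. Coloured points passed at an adjusted p under 0.05, 48 higher and 54 lower in exosomes, and 4 entries at 0 in every library of 1 vesicle type are not drawn. Passing entries are spread over low and high levels, and cgr-miR-21-5p is the most abundant of them.

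Among the most abundant miRNAs, miR-21 was lower in exosomes. This miRNA is found in most tissues and is known for its high level in many cancers. cgr-miR-21-5p stood at 129196, 109326 and 136551 CPM in the MP libraries and 58878, 53294 and 36268 CPM in the exosome libraries. Every exosome library lay under every MP library, by −1.47 ± 0.25, adjusted p = 0.000913. It took 12.5% ± 1.41 of MP counts and 4.95% ± 1.18 of exosome counts, against 142805 ± 15503 CPM in the cells. The fall was −1.23 ± 0.20, adjusted p = 0.00112 without exosome library 3, which held the lowest level.

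Opposite to miR-21, cgr-miR-29a-3p and cgr-miR-22-3p rose. cgr-miR-29a-3p, of a family known to repress collagens and other matrix genes, stood at 31480.5, 23942 and 25428 CPM in the MP libraries and 56923, 50883 and 45082 CPM in the exosome libraries, a rise of +0.79 ± 0.19, adjusted p = 0.00871. All exosome libraries were above all MP libraries, although without MP library 2 the adjusted p was 0.0516. cgr-miR-22-3p stood at 14575, 12916 and 12571 CPM in the MP libraries and 26999.9, 26538 and 30799 CPM in the exosome libraries and rose by +0.92 ± 0.23, adjusted p = 0.0091. The groups were again apart and the exosome libraries were close to each other. mmu-miR-24-3p stood at 7616, 5853 and 5174 CPM in the MP libraries and 12704, 15804 and 25831 CPM in the exosome libraries, so that exosome library 3 was far above the other exosome libraries, but even the lowest exosome library exceeded every MP library (+1.38 ± 0.22, adjusted p = 0.000821, and +1.14 ± 0.19, adjusted p = 0.00112 without exosome library 3). Its hamster-named counterpart, cgr-miR-24-3p, did not pass (+0.40 ± 0.18, adjusted p = 0.113). With counts summed over species names the miR-24-3p rise was +0.94 ± 0.20, adjusted p = 0.00428.

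Of the 5 entries highest in mean level, the other 3 did not pass. cgr-miR-92a-3p, the first entry in both vesicle types and encoded in the miR-17-92 cluster known for promoting growth, stood at 147245, 154948 and 121395 CPM in the MP libraries and 201659, 203648 and 213041 CPM in the exosome libraries. The exosome libraries were all above the MP libraries, yet the fitted difference of +0.40 ± 0.20, adjusted p = 0.152 missed the threshold. It passed with the authors' sizes (+0.60 ± 0.21, adjusted p = 0.0437), with DESeq2 (+0.43 ± 0.17, adjusted p = 0.0377) and in the 6 vesicle libraries without exosome library 3 (+0.45 ± 0.12, adjusted p = 0.0113). cgr-miR-25-3p, of the related miR-106b-25 cluster, stood at 56363, 52086 and 49879 CPM in the MP libraries and 74582, 69449 and 72204 CPM in the exosome libraries and gave +0.30 ± 0.17, adjusted p = 0.191, and it passed with library size alone, the authors' sizes, DESeq2 and the 6 libraries without exosome library 3. cgr-miR-23a-3p held 125928 ± 4294 CPM (SD, n = 3) in MPs and 139752 ± 7762 in exosomes, and the fitted difference after scaling was 0.00 ± 0.22, adjusted p = 0.991.

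Most abundant let-7 members were lower in exosomes. This family is known for holding back growth genes such as Hmga2 and Ras. Of 20 tested entries of let-7 and its relative miR-98, 7 fell and 1 rose, beside 16% lower and 13.7% higher over all tested entries. The median was −0.45 beside +0.01 over all tested entries. The family took 13.8%, 16.8% and 17.7% of counts in the MP libraries and 10.6%, 9.63% and 7.45% in the exosome libraries. MP libraries 2 and 3 were highest and exosome library 3 lowest, with no overlap (exact permutation p = 0.1, the smallest that 3 against 3 libraries allow). The median stayed below 0 under the other scalings (−0.43, −0.31 and −0.25), and without exosome library 3 it was −0.19 with 6 falling. Without MP library 3 only 4 fell, since cgr-let-7b, mmu-let-7c-5p and cgr-let-7d-3p did not pass there.

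Members of let-7 differed from each other. cgr-let-7a stood at 23402, 32459 and 33981 CPM in the MP libraries and 11873, 11999.9 and 7618 CPM in the exosome libraries, a fall of −1.66 ± 0.27, adjusted p = 0.000829, and cgr-let-7f fell by a similar amount (−1.46 ± 0.27). Every exosome library of both lay under every MP library. mmu-let-7e-5p had the largest fall of the family, from 680.5, 843 and 1209 CPM in the MP libraries and 385, 245 and 272 CPM in the exosome libraries (−1.76 ± 0.29, adjusted p = 0.000829). cgr-miR-98 fell by 1.07 ± 0.23, and smaller falls were seen for cgr-let-7b (−0.91 ± 0.25) and mmu-let-7c-5p (−0.88 ± 0.25). In contrast, cgr-let-7g-5p (−0.42 ± 0.21), cgr-let-7d-5p (−0.09 ± 0.20) and mmu-let-7i-5p (+0.05 ± 0.20) did not pass and their libraries overlapped. The ratio of cgr-let-7d-5p to cgr-let-7a, which needs no scaling between libraries because both are read from 1 library, went from 0.113 to 0.336, with no overlap (exact permutation p = 0.1). The member that rose, mmu-let-7j, averaged 14.3 ± 2.72 CPM in MPs and 37.2 ± 4.47 CPM in exosomes, and its call was lost when any of 5 vesicle libraries was left out.

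The 12 largest rises among passing entries of at least 50 CPM in either vesicle type were led by miR-186. mmu-miR-186-5p stood at 347, 242 and 202 CPM in the MP libraries and 1032, 1132 and 1344 CPM in the exosome libraries, a rise of +2.01 ± 0.27, adjusted p = 0.000401, or 4.03-fold. The hamster-named entry of the same miRNA, cgr-miR-186-5p, stood at 909, 650.2 and 447 CPM in the MP libraries and 1807, 2064 and 1964 CPM in the exosome libraries (+1.42 ± 0.32, adjusted p = 0.00561). Both entries were apart in all libraries and both passed in every setting run. mmu-miR-1839-5p stood at 19.5, 15.9 and 17.5 CPM in the MP libraries and 58.2, 79.2 and 73.8 CPM in the exosome libraries (+1.85 ± 0.36, adjusted p = 0.0021), with exosome libraries about as close to each other as MP libraries, while cgr-miR-1839-5p gave +0.56 ± 0.30 and did not pass. cgr-miR-148b-3p, of the family known to repress the DNA methyltransferase Dnmt1, stood at 61.1, 31.8 and 30.3 CPM in the MP libraries and 133, 144 and 144 CPM in the exosome libraries (+1.66 ± 0.33, adjusted p = 0.0021), so that MP library 1 was the highest of the MPs and still under each exosome library. All 3 were called in every setting run.

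Several of the largest rises were uneven among the exosome libraries. mmu-miR-24-2-5p, the minor arm of a miR-24 hairpin, stood at 28.1, 27.6 and 28.7 CPM in the MP libraries and 47.7, 92.1 and 222 CPM in the exosome libraries. The rise was +1.89 ± 0.48, adjusted p = 0.0101 and became +1.24 ± 0.42, adjusted p = 0.0457 without exosome library 3. mmu-miR-324-5p, known to repress Hedgehog signalling genes, showed the same spread at 17.1, 17.5 and 18.3 CPM in the MP libraries and 28.4, 46.2 and 163 CPM in the exosome libraries (+1.93 ± 0.53, adjusted p = 0.0146). It did not pass without exosome library 3 (+1.00 ± 0.41, adjusted p = 0.0882) or without any 1 MP library. cgr-miR-324-5p was more even, at 17.1, 15.0 and 15.2 CPM in the MP libraries and 38.1, 61.3 and 72.6 CPM in the exosome libraries (+1.70 ± 0.46, adjusted p = 0.0137), but lost the call without any 1 MP library or exosome library 2. rno-miR-505-3p stood at 83.1, 65.2 and 52.6 CPM in the MP libraries and 131, 210.2 and 364 CPM in the exosome libraries and rose by +1.65 ± 0.33, adjusted p = 0.00265 (+1.30 without exosome library 3), and cgr-miR-505-3p and hsa-miR-505-3p rose as well (+0.78 ± 0.24 and +2.40 ± 0.66). The call of cgr-miR-505-3p was lost without any 1 MP library or exosome library 2 or 3, and that of hsa-miR-505-3p without MP library 1. cgr-miR-192, known as a p53-induced miRNA abundant in gut and liver, averaged 29.3 ± 10.7 CPM in MPs and 97.5 ± 18.1 in exosomes (+1.58 ± 0.44, adjusted p = 0.0162), and did not pass without MP library 1, MP library 3 or exosome library 2.

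**Figure D2:**
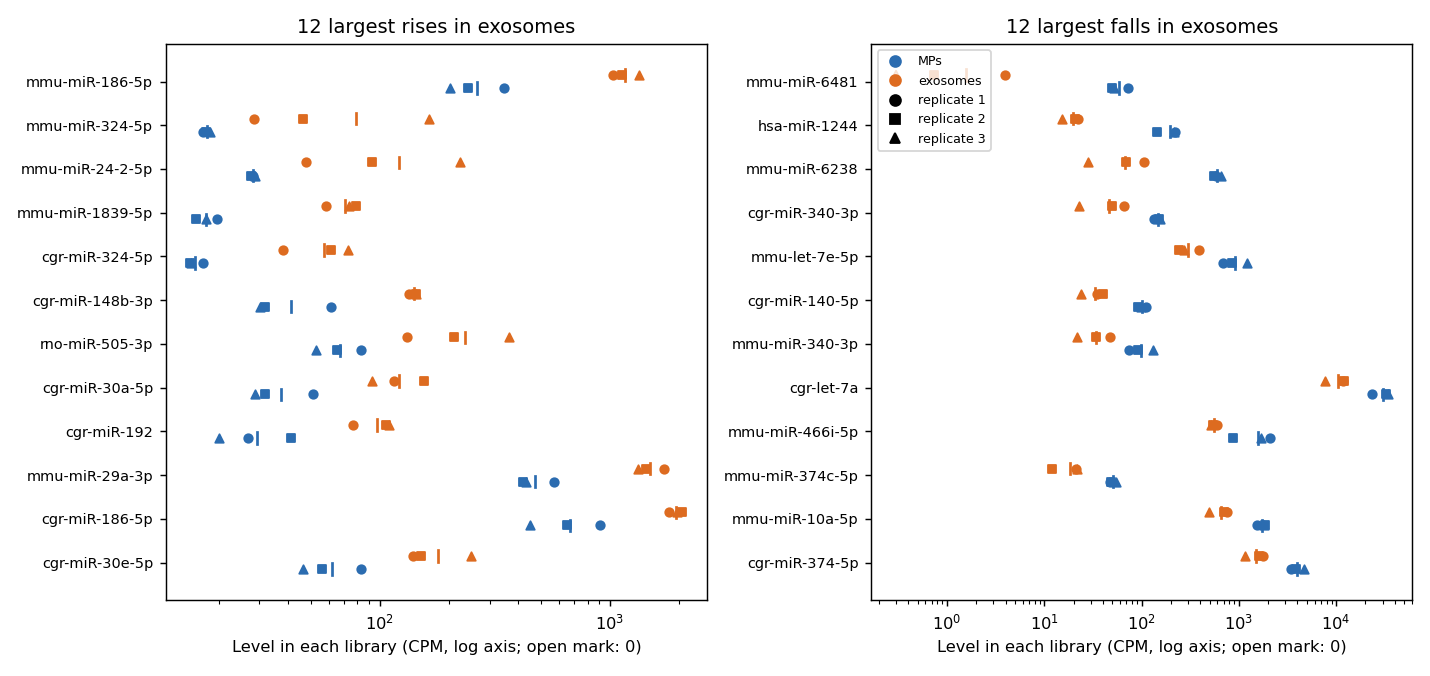
Level in each library, in CPM on a log axis, of the 12 entries with the largest rise (left) and the 12 with the largest fall (right) that passed and averaged at least 50 CPM in either vesicle type; symbols mark the replicate, short vertical lines the group means, and an open mark a value of 0. In all 24 entries the MP and exosome libraries are apart, and exosome library 3 is the highest of its group for mmu-miR-324-5p and mmu-miR-24-2-5p and the lowest for mmu-miR-6238.

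Among entries of at least 50 CPM in either vesicle type, the 3 largest falls belonged to entries from a list thought to overlap other RNA classes or repeats. mmu-miR-6481 stood at 72.1, 49.3 and 52.6 CPM in the MP libraries and 3.94, 0.734 and 0 CPM in the exosome libraries, a fall of −5.29 ± 0.82, adjusted p = 0.000889. hsa-miR-1244 stood at 222, 145 and 217 CPM in the MP libraries and 22.3, 20.9 and 15.4 CPM in the exosome libraries (−3.45 ± 0.30, adjusted p = 5.05e-06) and mmu-miR-6238 at 578, 551 and 656 CPM in the MP libraries and 106, 69.0 and 28.0 CPM in the exosome libraries (−3.26 ± 0.44, adjusted p = 0.000401). In all 3 each exosome library was under each MP library by a wide margin, and all 3 passed in every setting run. Of the 31 tested entries of that list 9 fell and none rose, with a median of −0.82 (−0.82 also with the entry at 0 in exosomes set to its bound), and 10 fell without exosome library 3 and 5 without MP library 3. The list's summed share was 0.462%, 0.408% and 0.368% of counts in the MP libraries and 0.261%, 0.274% and 0.399% in the exosome libraries (exact permutation p = 0.2), so the groups overlapped, and members that did not pass held most of it. This list, like the other miRNA lists used here, was drawn up with earlier results of these data known. The direction of a list is therefore no independent evidence.

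In cells hsa-miR-1244 reached 5468 ± 2126 CPM, and mmu-miR-466i-5p reached 25824 ± 4409 CPM. The latter belongs to repeat-derived hairpins that in the mouse lie in an intron of Sfmbt2. It stood at 2103, 875 and 1703 CPM in the MP libraries and 599, 548 and 514 CPM in the exosome libraries (−1.63 ± 0.26, adjusted p = 0.000829), so the level went down from cells to MPs to exosomes. mmu-miR-6481 was at 0 in every cell library, while mmu-miR-6238 held 604 ± 299.7 CPM there, near its MP level. The cell libraries held only 132154 to 180764 counts. A count of 0 over all of them allows up to 6.47 CPM, so mmu-miR-6481 in cells cannot be placed below its exosome mean of 1.56 CPM.

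Besides let-7, the 12 largest falls held conventional miRNAs of the miR-340, miR-140, miR-374 and miR-10 families. cgr-miR-340-3p stood at 134, 150.4 and 153 CPM in the MP libraries and 66.1, 49.5 and 22.7 CPM in the exosome libraries (−1.79 ± 0.42, adjusted p = 0.00679), and mmu-miR-340-3p fell by a like amount (−1.67 ± 0.41), though not past the threshold without MP library 3 (adjusted p = 0.0502). cgr-miR-140-5p, best known from cartilage, stood at 110.0, 91.1 and 99.7 CPM in the MP libraries and 35.0, 40.3 and 23.9 CPM in the exosome libraries (−1.72 ± 0.32, adjusted p = 0.00165). cgr-miR-374-5p stood at 3417, 3848 and 4684 CPM in the MP libraries and 1753, 1601 and 1143 CPM in the exosome libraries (−1.55 ± 0.25, adjusted p = 0.000829), and mmu-miR-374c-5p fell too (−1.61 ± 0.42) but not without MP library 3 or exosome library 2. mmu-miR-10a-5p, encoded within a Hox cluster, stood at 1552, 1854 and 1831 CPM in the MP libraries and 755, 703 and 493 CPM in the exosome libraries (−1.56 ± 0.24, adjusted p = 0.000584). All exosome libraries of these entries lay under all MP libraries.

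Few entries were found in 1 vesicle type alone. In MPs 7 entries had counts in all 3 libraries and none in exosomes, and 4 had the reverse, all at low levels. cgr-miR-1973 was counted 8, 13 and 19 times in MPs, or 11.9 CPM, and not at all in exosomes. A count of 0 over all exosome libraries allows up to 3 counts, or 0.401 CPM, so cgr-miR-1973 was at least 29.7-fold lower in exosomes. The highest entry seen in exosomes alone, mmu-miR-212-3p, was counted 1, 11 and 36 times, which puts it at least 6.92-fold higher given a floor of 0.918 CPM in MPs, with most counts in exosome library 3. Such bounds cover counting error only, because reads amplified by PCR without molecular identifiers are not independent molecules.

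Families differed in how many of their members changed. Their counts stand beside 13.7% higher and 16% lower over all tested entries, and many families have few entries. Of the miR-29 family 4 of 9 tested entries rose and 1 fell (median +0.79). Without exosome library 3 the median was +0.43 with 4 rises and no fall, and without MP library 2 there were 2 rises. The family's share went from 2.81% ± 0.411 (SD, n = 3) in MPs to 5.31% ± 0.612 in exosomes. The rises were of miR-29a-3p and miR-29c-3p under both hamster and mouse names, with mmu-miR-29a-3p at 572, 420.4 and 432 CPM in the MP libraries and 1715, 1432 and 1323 CPM in the exosome libraries (+1.52 ± 0.23, adjusted p = 0.000584). cgr-miR-29c-3p (+1.18 ± 0.40) lost its call without any 1 MP library or exosome library 1 or 2. The fall of cgr-miR-29b-3p (−0.83 ± 0.30, adjusted p = 0.04997) was at the threshold and did not pass under any of the 3 other scalings or without any 1 vesicle library.

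The miR-320 family, known for being made without the nuclear enzyme Drosha, had 3 of 5 tested members higher and none lower, with a median of +0.96. cgr-miR-320a stood at 4333, 4277 and 3861 CPM in the MP libraries and 9669, 11063 and 14508 CPM in the exosome libraries (+1.34 ± 0.22, adjusted p = 0.000897), and it was apart in every library and passed in every setting run. hsa-miR-320d (+0.96 ± 0.22) and hsa-miR-320e (+1.15 ± 0.36) rose with it, the latter not without MP library 1 or 2 or exosome library 1 or 2. The share of the family went from 0.538% ± 0.00721 to 1.39% ± 0.263.

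The miR-181 family, best known from lymphocyte development, rose in 3 of 6 entries, with none lower and a median of +0.84. cgr-miR-181a-5p stood at 3732, 3456 and 3036 CPM in the MP libraries and 6328, 7617 and 11623 CPM in the exosome libraries (+1.16 ± 0.20, adjusted p = 0.000913, and +0.97 without exosome library 3, the highest). The family's share went from 0.903% ± 0.0707 to 1.68% ± 0.335. Without MP library 3 only 1 of the 6 passed, as cgr-miR-181d-5p (+1.27 ± 0.33) and mmu-miR-181b-5p (+0.53 ± 0.18) did not, and the latter lost its call without any 1 vesicle library. The miR-199 and miR-214 group, transcribed with an RNA antisense to a dynamin gene, rose in 4 of 5 entries with a median of +0.97, and in 2 of 5 without exosome library 3, MP library 2 or MP library 3. cgr-miR-199a-3p stood at 1103, 811 and 761 CPM in the MP libraries and 1488, 1744 and 1731 CPM in the exosome libraries (+0.75 ± 0.19, adjusted p = 0.00874), a call kept in every setting run, while cgr-miR-214-3p (+1.19 ± 0.32) did not pass without exosome library 3, the highest, or without any 1 MP library.

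In the miR-30 family 3 of 10 entries rose and none fell (median +0.43). The most abundant, mmu-miR-30d-5p, stood at 7036, 6843 and 6381 CPM in the MP libraries and 12298, 11674 and 12102 CPM in the exosome libraries (+0.69 ± 0.21, adjusted p = 0.0247), with replicates tightly grouped. Even so, its adjusted p was above 0.05 without any 1 MP library or exosome library 1 or 2 (up to 0.0775). cgr-miR-30a-5p stood at 51.3, 31.8 and 28.7 CPM in the MP libraries and 115, 156 and 92.8 CPM in the exosome libraries (+1.60 ± 0.36, adjusted p = 0.00544) and kept its call throughout, whereas cgr-miR-30e-5p (+1.39 ± 0.44) lost it without any of 5 vesicle libraries, and only 1 of the 10 passed without MP library 2 or MP library 3. The mouse-named mmu-miR-30a-5p (+0.77 ± 0.36) and mmu-miR-30e-5p (+0.23 ± 0.33) did not pass. The share of the family went from 0.796% ± 0.0519 to 1.37% ± 0.0379. Of miR-148 with miR-152, 1 of 2 was higher, and of miR-192 with miR-194 and miR-215, 1 of 3. Of the imprinted Dlk1-Dio3 miRNAs 2 of 10 were higher, near the 13.7% over all entries, with a median of +0.09 and overlapping shares (exact permutation p = 0.7). These were cgr-miR-410-3p (+1.09 ± 0.35) and the sparse cgr-miR-496, neither of which passed without MP library 2 or MP library 3.

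The families of miR-15 with miR-16 and of miR-26 had several members lower in exosomes, beside 16% lower over all tested entries. The miR-15 family, known to repress cyclins, had 5 of 15 entries fall and 1 rise (median −0.43, and 3 falls with no rise without MP library 3), and its share went from 5.54% ± 0.681 to 3.45% ± 0.452. The entry that rose was cgr-miR-322-3p, the opposite arm of a hairpin whose 5p arm was among the falls. cgr-miR-16-5p stood at 35455, 35665 and 45138 CPM in the MP libraries and 28182, 25721 and 21321 CPM in the exosome libraries (−0.77 ± 0.23, adjusted p = 0.0213), with exosome libraries below in every case. It did not pass with the authors' sizes or without MP library 2 or 3 or exosome library 2 or 3. cgr-miR-15b-5p fell further (−1.06 ± 0.26, adjusted p = 0.00756) and kept its call throughout, as did mmu-miR-195a-5p (−1.17 ± 0.26). The hamster-named cgr-miR-195 (−0.31 ± 0.29) did not pass. Of the miR-26 family, known to repress the Polycomb enzyme Ezh2, 2 of 5 fell and the median was −1.10. mmu-miR-26a-5p stood at 13877, 13802 and 13676 CPM in the MP libraries and 7328, 8270.1 and 5648 CPM in the exosome libraries (−1.10 ± 0.21, adjusted p = 0.00165), and cgr-miR-26a-2 fell by 1.11 ± 0.21. The MP libraries were almost equal to each other and each well above the exosome libraries. mmu-miR-26b-5p (−0.59 ± 0.23, adjusted p = 0.0684) and cgr-miR-26b-5p (−0.50 ± 0.22, adjusted p = 0.0999) were lower in level without passing.

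Other families were divided. Of the entries of miR-10, miR-125, miR-99 and miR-100, 5 of 19 fell and none rose, beside 16% lower and 13.7% higher over all tested entries. The share called in either direction was near the 29.6% over all entries, and the median was +0.01. Their share of counts went from 4.31% ± 0.166 in MPs to 3.73% ± 0.256 in exosomes, with no overlap (exact permutation p = 0.1). With the authors' sizes 2 rose and 5 fell. The falls were of mmu-miR-10a-5p, mmu-miR-10b-5p (−1.36 ± 0.24), rno-miR-10b-5p (−0.97 ± 0.23), mmu-miR-100-5p (−0.85 ± 0.23) and cgr-miR-125a-5p (−0.75 ± 0.17). The hamster-named cgr-miR-10a-5p (−0.44 ± 0.22), cgr-miR-10b-5p (−0.54 ± 0.22) and cgr-miR-100-5p (+0.05 ± 0.20) did not pass, and the last had the opposite sign to mmu-miR-100-5p. Of miR-28 and its relatives 3 of 8 fell and 1 rose (median −0.35), and 1 fell without MP library 2 or 3 or with the authors' sizes. mmu-miR-708-5p stood at 617, 610.1 and 582 CPM in the MP libraries and 224, 271 and 258 CPM in the exosome libraries (−1.41 ± 0.21, adjusted p = 0.000584), a call kept in every setting run, whereas cgr-miR-151-3p (−0.65 ± 0.18), cgr-miR-151-5p (−0.59 ± 0.20) and hsa-miR-151b (+1.23 ± 0.44) lost theirs without several single libraries. The hamster-named cgr-miR-708 (−0.60 ± 0.27) did not pass. The miR-23/27/24 clusters had 2 of 11 higher, also near the share over all entries, and 1 lower, hsa-miR-23b-3p (adjusted p = 0.0136), which did not pass without MP library 2 or 3. The Sfmbt2 repeat miRNAs had 2 of 4 lower, mmu-miR-466i-5p in every setting run and mmu-miR-466f-3p not without MP library 1 or 3 or exosome library 1 or 3. Of miR-103 and miR-107, 0 of 2 entries passed by edgeR's test, although cgr-miR-103-3p (+0.55 ± 0.23, adjusted p = 0.0882) had an unadjusted p under 0.05 and passed by DESeq2. Of the p53-linked miR-34 and miR-449 family 0 of 5 passed by edgeR or by DESeq2, and 0 had an unadjusted p under 0.05.

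**Figure D3:**
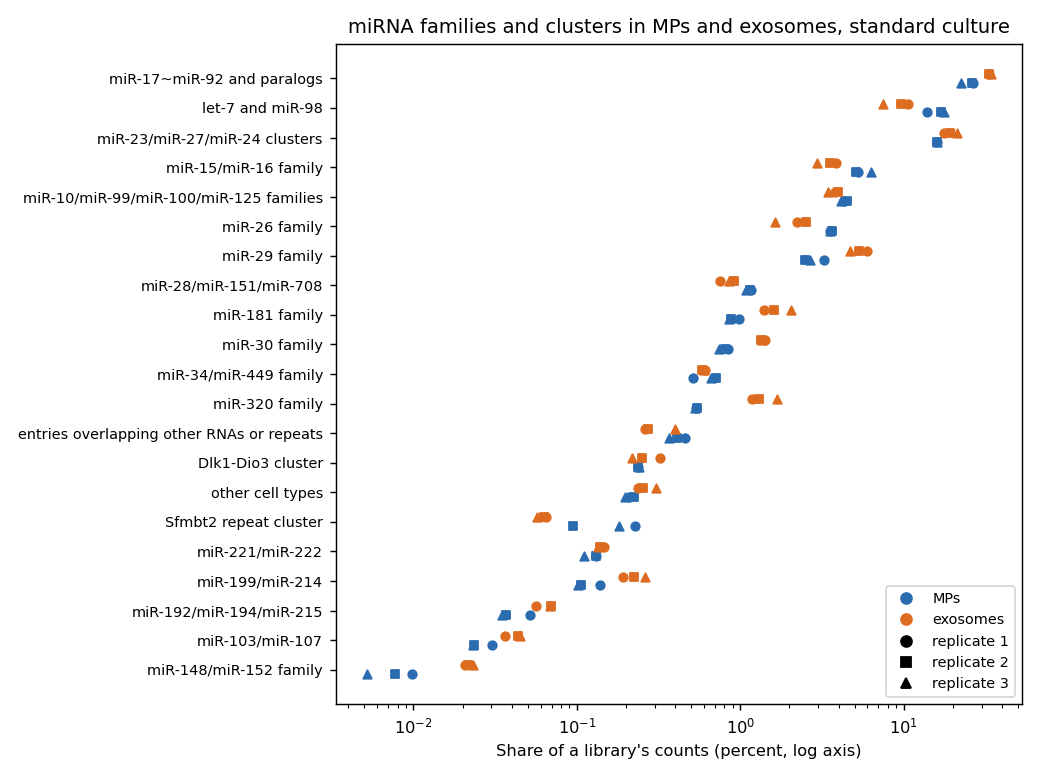
Share of each library's counts, in percent on a log axis, taken by each of 21 lists of miRNA entries; blue marks are MP libraries, orange marks exosome libraries, and symbols give the replicate. The let-7, miR-10, miR-15, miR-26, miR-28 and Sfmbt2 lists lie lower in all exosome libraries. The miR-17, miR-23, miR-29, miR-30, miR-103, miR-148, miR-181, miR-192, miR-199, miR-221, miR-320 and other cell type lists lie higher. The miR-34, Dlk1-Dio3 and other RNA lists overlap.

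Members of 1 genomic cluster did not all move alike. RefSeq's Chinese hamster annotation, assembly CriGri-PICRH-1.0, was used for which miRNA genes neighbour each other, taking genes at most 10000 bases apart as a cluster. Of 186 tested hamster entries 177 matched a gene by name, and they formed 21 clusters with more than 1 measured hairpin. In 16 clusters at least 1 entry passed, and in 4 of these entries passed in opposite directions. Different hairpins held these entries for miR-29a with miR-29b, miR-29b-2 with miR-29c, and miR-221 with miR-222. In the cluster of miR-322 and miR-503 they were both arms of the miR-322 hairpin. No other hairpin there had an entry that passed, cgr-miR-503 included (+0.10 ± 0.39). Over all tested entries 29.6% passed, and each cluster held more than 1 entry, so the count of clusters cannot be set directly against that share. The miR-29a and miR-29b-2 clusters share cgr-miR-29b-3p, whose fall passed under TMM scaling but not under the other scalings. Without MP library 3, 1 side of each of the 4 opposite pairs did not pass by edgeR's test. These were cgr-miR-29b-3p, cgr-miR-222-3p and cgr-miR-322-3p (adjusted p = 0.195, 0.0502 and 0.0502).

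Members of the miR-17-92 cluster differed from each other. cgr-miR-20a stood at 19375, 14722 and 16830.3 CPM in the MP libraries and 7483, 7896 and 8022 CPM in the exosome libraries (−1.27 ± 0.19, adjusted p = 0.000584), a fall kept in every setting run, while cgr-miR-92a-3p of the same cluster was higher in every exosome library. miR-92a also has a copy in a paralogous cluster, and its reads cannot be assigned to 1 copy. Their ratio within a library, on a log2 scale, was +2.93, +3.40 and +2.85 in the MP libraries and +4.75, +4.69 and +4.73 in the exosome libraries, and on a linear scale it went from 8.32 to 26.4. The exosome libraries were nearly identical in this ratio and all above the MP libraries (exact permutation p = 0.1). cgr-miR-18a-5p fell (−0.75 ± 0.22), with overlapping libraries and the call lost without MP library 1 or 3 or exosome library 1 or 2. cgr-miR-17-5p (+0.09 ± 0.20) and cgr-miR-19b-3p (+0.49 ± 0.35) did not pass. Over the 18 tested entries of this cluster and its paralogs 3 fell, near the 16% lower over all tested entries, and none rose. With the authors' sizes 3 rose and 1 fell, and without MP library 3 only 1 fell. The share of the whole list nonetheless was 26.6%, 26.1% and 22.5% of counts in the MP libraries and 33.2%, 33.1% and 34.3% in the exosome libraries, with no overlap, and cgr-miR-92a-3p and cgr-miR-25-3p held most of it.

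Among other cluster mates, the ratio of cgr-miR-29a-3p to cgr-miR-29b-3p went from 58.3 to 177, a 3.03-fold change. mmu-miR-24-3p against cgr-miR-23a-3p went from 0.0487 to 0.124, while cgr-miR-27a-3p against cgr-miR-23a-3p went from 0.0957 to 0.108 with overlapping libraries (exact permutation p = 0.5). The first of these ratios used the mouse-named entry. The hamster-named cgr-miR-24-3p rose less (+0.40 ± 0.18) and did not pass, so the contrast between these mates depends on the species name. miR-24 hairpins lie in 2 clusters, so its reads cannot be assigned to 1 of them. The ratio of cgr-miR-25-3p to cgr-miR-93-5p rose 1.47-fold without overlap.

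For miR-221 and miR-222, which repress the cell cycle inhibitor Cdkn1b, the result turned on the species name. cgr-miR-221-3p stood at 181, 176 and 168 CPM in the MP libraries and 378, 336 and 270.0 CPM in the exosome libraries (+0.77 ± 0.25, adjusted p = 0.0316), and its rise was lost without any 1 MP library or exosome library 1 or 2. cgr-miR-222-3p stood at 219, 211 and 187 CPM in the MP libraries and 141, 109 and 81.5 CPM in the exosome libraries (−1.02 ± 0.30, adjusted p = 0.0213). That fall did not pass with the authors' sizes or without MP library 2 or 3 or exosome library 2 or 3. The more abundant mmu-miR-222-3p stood at 788, 809 and 652 CPM in the MP libraries and 810.1, 815 and 905 CPM in the exosome libraries and gave +0.02 ± 0.18, adjusted p = 0.943. With counts summed over species names the miR-222-3p difference was −0.06 ± 0.17, adjusted p = 0.837, so the fall of the hamster-named entry did not hold for miR-222 as a whole. Of the 4 tested entries of miR-221 and miR-222, 1 rose and 1 fell. Across the 55 names tested under more than 1 species, 37 had the same sign in every entry and none had calls in opposite directions.

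**Figure D4:**
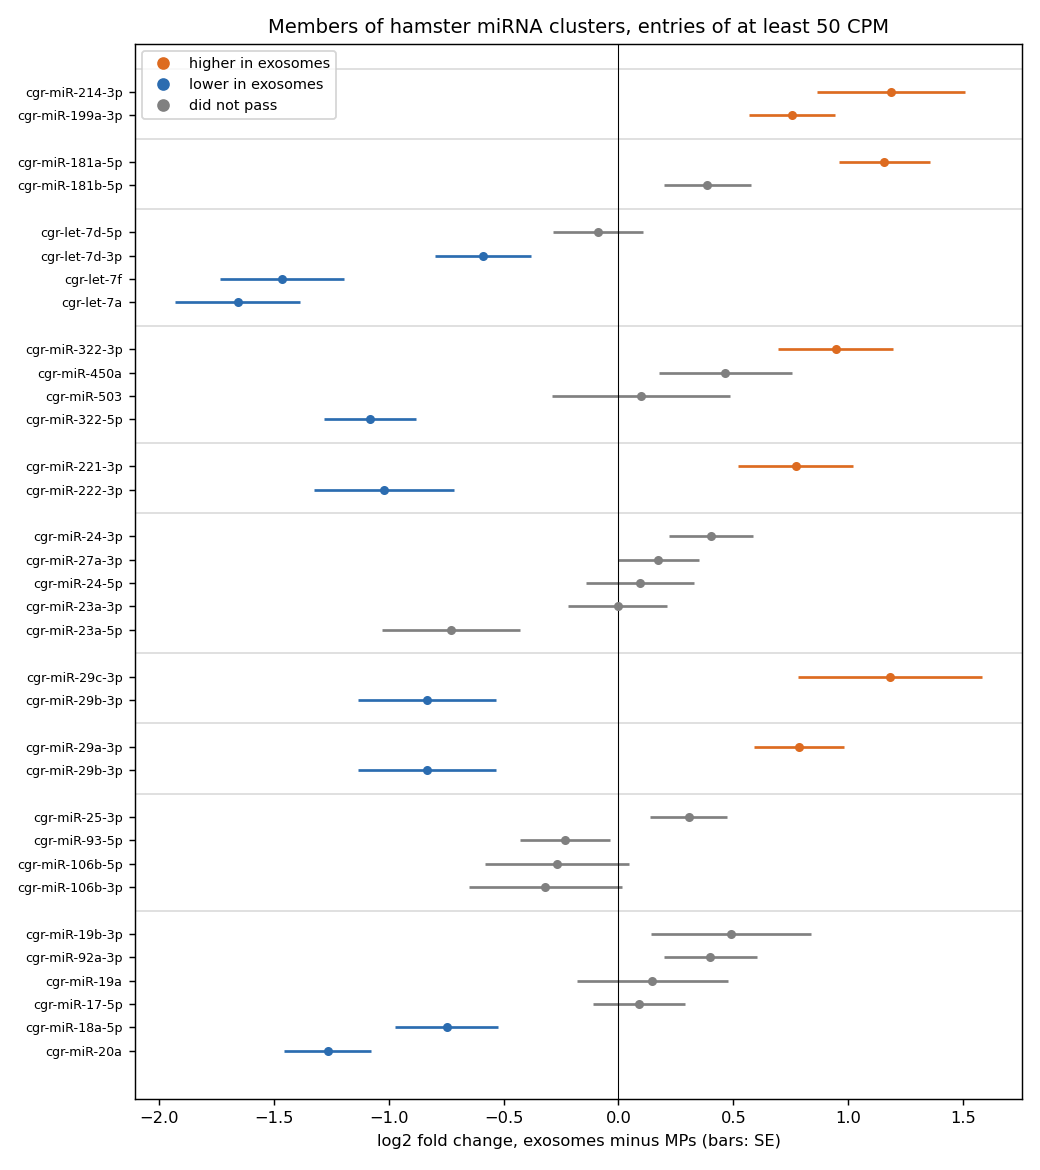
Fitted log2 fold change, exosomes minus MPs, of the hamster-named entries of 10 miRNA clusters, for entries of at least 50 CPM in either vesicle type; bars are the SE, colours mark entries that passed, and grey lines separate clusters. Orange and blue points stand in 1 cluster for miR-29, for miR-221 with miR-222 and for miR-322, where they are arms of 1 hairpin. cgr-miR-20a lies farthest to the left of the miR-17-92 cluster.

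The balance between the arms of a hairpin was compared next. Both arms were tested for 48 hairpins, and in 26 the ratio of 5p to 3p within a library did not overlap between MPs and exosomes, lower in exosomes in 17 and higher in 9. Among single entries 49.3% had no overlap, a share near that of the arm ratios. cgr-miR-322, the rodent counterpart of miR-424, was the 1 hairpin whose arms passed in opposite directions. Its 5p arm stood at 2548, 1798 and 2123 CPM in the MP libraries and 1119.5, 1185 and 1058 CPM in the exosome libraries (−1.08 ± 0.20, adjusted p = 0.00143), and its 3p arm at 123, 157 and 132 CPM in the MP libraries and 245, 290.1 and 358 CPM in the exosome libraries (+0.95 ± 0.25, adjusted p = 0.0121). The ratio went from 15.5 to 3.8, though the rise of the 3p arm did not pass without MP library 1 or 3. A change of arm ratio is independent of how libraries are scaled, and 3 against 3 libraries cannot give an exact permutation p under 0.1.

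For cgr-miR-340 the 3p arm fell while the 5p arm gave +0.66 ± 0.25, adjusted p = 0.0622. The log2 ratio of 5p to 3p was +0.14, −0.44 and −0.52 in the MP libraries and +1.56, +2.20 and +3.21 in the exosome libraries, from near balance to a clear excess of 5p in every exosome library. In cgr-miR-140 the fall of the 5p arm against a 3p arm at +0.79 ± 0.65 took the ratio from 6.61 to 1.1. The 5p arms of cgr-miR-30a and cgr-miR-30e rose against 3p arms that did not pass, and their ratios went from 0.683 to 1.97 and from 0.19 to 0.756. For cgr-miR-324 the ratio went from 0.0786 to 0.177. Under the mouse name, mmu-miR-324, it went from 2.15 to 3.76 with overlapping libraries (exact permutation p = 0.6), so this ratio depended on the species name. In cgr-miR-423, chosen after its values were seen, the 5p arm stood at 2192, 2239 and 2098 CPM in the MP libraries and 3627, 4808 and 5417 CPM in the exosome libraries (+0.93 ± 0.18, adjusted p = 0.00188) and the ratio went from 0.169 to 0.319. The rat-named rno-miR-423-5p gave +0.42 and did not pass. The 5p arm lost against 3p in cgr-miR-322, cgr-miR-140 and cgr-miR-125a, and gained in the other hamster hairpins named.

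**Figure D5:**
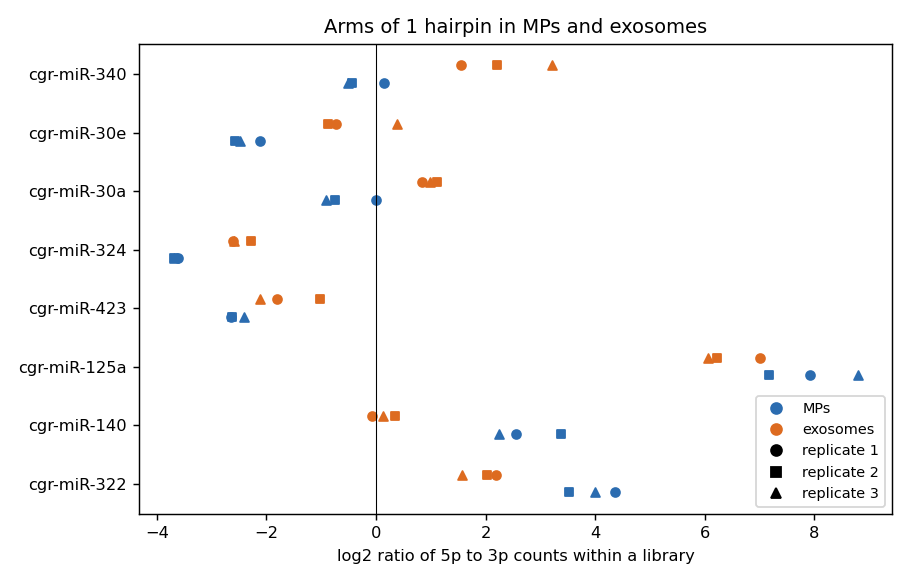
Log2 ratio of 5p to 3p counts within each library, with a pseudocount of 0.5 on both counts, for 8 hamster hairpins; blue marks are MP libraries, orange marks exosome libraries, and symbols give the replicate. MP and exosome libraries are apart for all 8, to the left in exosomes for cgr-miR-322, cgr-miR-140 and cgr-miR-125a and to the right for the other 5.

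Levels in the cells set both vesicle types in context. cgr-let-7a averaged 54059 ± 6104 CPM in cells (SD, n = 3), 29947 ± 5719.7 in MPs and 10497 ± 2494 in exosomes, and the whole let-7 list 24.8% ± 1.96, 16.1% ± 2.05 and 9.23% ± 1.61 of counts. Rising in the same order, cgr-miR-29a-3p averaged 13983 ± 2811, 26949.9 ± 3993 and 50962 ± 5921 CPM. cgr-miR-320a and cgr-miR-221-3p did not follow such an order, since the cells held 7655 ± 3194 and 469 ± 139 CPM, more than the MPs. All of these are shares of counted miRNA, so a lower share cannot be told apart from more of other miRNAs, and amounts per vesicle were not measured.

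Markers of other cell types were mostly low, with 3 exceptions. Of the 6 entries tested from a list for liver, muscle, neurons, blood and polarised epithelium 0 passed by edgeR or by DESeq2, and 0 had an unadjusted p under 0.05. The list took 0.209% ± 0.0125 of counts in MPs and 0.265% ± 0.0359 in exosomes, higher in every exosome library (exact permutation p = 0.1). Whether cells of other types contributed was not tested. Most of this was cgr-miR-486-5p, a blood marker that stood at 1419.6, 1679 and 1410.3 CPM in the MP libraries and 1376, 1733 and 2099 CPM in the exosome libraries. The neuronal cgr-miR-128-3p stood at 298, 194 and 219 CPM in the MP libraries and 533, 387 and 404 CPM in the exosome libraries (+0.77 ± 0.37, adjusted p = 0.142), with all exosome libraries above all MP libraries. The muscle mmu-miR-499-5p stood at 263, 258 and 229 CPM in the MP libraries and 354, 315 and 355 CPM in the exosome libraries (+0.30 ± 0.22, adjusted p = 0.332), again with the exosome libraries above. Most other markers of the listed tissues were near 0. The liver miRNA cgr-miR-122 reached at most 3.19 CPM. The neuronal cgr-miR-124, the muscle cgr-miR-206 and the red cell cgr-miR-451a had counts in MP library 1 alone and stood at 0 in all exosome libraries. Others went the other way. The neuronal cgr-miR-9 stood at 0, 0.836 and 1.60 CPM in the MP libraries and 5.69, 4.03 and 3.65 CPM in the exosome libraries. The muscle mmu-miR-133a-3p had counts in exosome library 3 alone (11.8 CPM). The epithelial rno-miR-200c-3p overlapped, at 7.33, 31.8 and 27.9 CPM in MPs and 10.9, 17.2 and 21.5 CPM in exosomes. The vesicle types themselves are told apart by proteins and size, which were not measured in these data, so the labels of exosomes and MPs could not be checked here.

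In the stressed cultures the same contrast could be read with far less precision. Their 18 libraries were made with another kit and sequenced in another pool, so culture and kit cannot be told apart. A test of whether the exosome minus MP difference changed from the standard culture, in a fit of the 18 vesicle libraries of the 3 cultures, called 0 of 333 entries (0%) for the osmotic and 0 of 333 (0%) for the ammonia culture by edgeR's test. The unadjusted p was under 0.05 for 58 and 61 entries. The median SE of these differences was 3.14 and 2.95 on the log2 scale, so for a typical entry a difference had to be several units on that scale to pass. Some abundant entries had smaller SEs, such as 0.51 for cgr-let-7a and 0.76 for cgr-miR-92a-3p in either culture. Of 37 entries followed there (the most abundant and the largest rises and falls), 17 in the osmotic and 19 in the ammonia culture were at 0 in at least 1 of the 6 vesicle libraries. The exosome libraries there were shallow, at 26516 to 158836 counts in the osmotic and 116689 to 203816 in the ammonia culture, so a 0 in them can reflect depth. The MP libraries were deeper, at 378397 to 1103990 counts in the osmotic and 1962086 to 2967003 in the ammonia culture. Some of these entries were at 0 in the MP libraries too, and why was not tested.

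The let-7 members differed among themselves there. cgr-let-7a gave −1.93 ± 0.37, adjusted p = 0.0151 in the osmotic and −1.91 ± 0.37, adjusted p = 0.0312 in the ammonia culture, by edgeR's test in that fit. The −1.66 of the standard culture came from the other fit, of the 9 standard libraries, which was scaled and filtered separately. cgr-let-7f gave −1.33 ± 0.45, adjusted p = 0.0873 and −1.35 ± 0.45, adjusted p = 0.109, and mmu-let-7c-5p gave −0.93 ± 0.34, adjusted p = 0.108 and −0.52 ± 0.34, adjusted p = 0.313, osmotic culture first. cgr-let-7b gave −1.21 ± 0.38, adjusted p = 0.062 in the osmotic culture and +0.29 ± 0.37, adjusted p = 0.797 in the ammonia culture, where its sign was opposite to that in the standard culture. None of these 3 passed. The let-7 list took 67.8% ± 6.83 of counts in osmotic MPs and 46.3% ± 2.17 in osmotic exosomes, and 68.5% ± 0.749 and 54.3% ± 6.62 in the ammonia culture. The miR-320 list took 2.88% ± 1.12 and 8.5% ± 2.25 in the osmotic culture and 4.77% ± 0.556 and 3.69% ± 3.55 in the ammonia culture, MPs first. cgr-miR-21-5p gave −0.34 ± 0.79, adjusted p = 1, and +0.45 ± 0.79, adjusted p = 0.924, neither of which passed, and the tests of a change from the standard culture had adjusted p = 0.798 and 0.389. 6 of the standard culture's leading entries could not be compared, as cgr-miR-192, cgr-miR-324-5p, mmu-miR-324-5p, mmu-miR-1839-5p, mmu-miR-24-2-5p and mmu-miR-6481 were at 0 in every stressed vesicle library.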

How the data were processed

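RNA was extracted with the miRNeasy micro kit and sequenced as small RNA libraries, per the labels' protocols. The submitters' processing notes name FastQC 0.10.1 and cutadapt 2.8. The authors deposited raw read counts per mature miRNA entry, and beside them a scaled signal per entry, from which the library size behind each column was recovered (count over signal, constant within a column to 7.43e-10). A further 54 columns of per-sample values in the deposited tables were not used. Differences between groups were tested with edgeR 4.0.16 (R 4.3.3) by its quasi-likelihood test on the counts, with TMM scaling, its default filter on low counts, 1 fit over the 9 standard libraries and Benjamini-Hochberg adjustment over all 351 tested entries. The cultures were compared in a fit over 18 vesicle libraries. DESeq2 1.42.0 was an alternative. The fitting script was tested on simulated data. Ratios used a pseudocount of 0.5 and exact permutation tests (scipy 1.17.1). Named entries were the 12 largest rises and falls that passed and reached a mean of 50 CPM in either vesicle type, the 10 most abundant in each, list members and cluster or arm partners. The miRNA lists and the comparison itself were chosen with earlier results of these data known. The labels call the replicates biological without naming the flasks, so p-values measure the spread between these libraries, which may be partly technical.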

Additional observations from a re-analysis of the deposited data

How the results depend on the processing

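Under RLE scaling, library size alone, the authors' effective sizes, no filter, a filter of 50 CPM, DESeq2, the 6 vesicle libraries alone and counts summed over species, the number of entries that passed lay within 1.5 times the reported 104, and none of the 104 changed direction where it was tested under its own name. The list medians of miR-221 with miR-222 and of miR-34 with miR-449 turned from negative to positive under those of the authors and under library size alone. Leaving out 1 library at a time gave 54 to 115 entries, 23 to 56 higher and 31 to 61 lower. The lowest of each came without MP library 3. Fewer higher entries than 1.5 times under the reported 48 were also left without MP library 1 (26), MP library 2 (28) and exosome library 2 (30). Why was not tested. A filter-free fit tests more entries, and a left-out library leaves fewer residual degrees of freedom. With the replicate number as a replicate block 107 entries passed (46 higher, 61 lower). Same-numbered exosome and MP libraries had correlations of their deviations from the group means of 0.199, 0.119 and 0.0686, so the numbers were not taken to pair the libraries, although each exosome library correlated best with its own number. For a changed exosome minus MP difference, reported as 0 in both stressed cultures, RLE scaling gave 3 entries (osmotic) and 2 (ammonia), library size alone 3 in the osmotic culture, and no filter 8 and 2. Leaving out 1 of the 18 libraries gave 0 to 4 and 0 to 3. The cause was not tested. Depth did not limit abundant entries, but 23 tested entries stayed under 10 CPM, where 2 passed.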
